A study of Mus musculus with 12 samples.

Results

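The 10 genes described here, Hspa5, Hsp90b1, Ddit3, Atf4, Xbp1, Dnajb9, Herpud1, Pdia4, Sdf2l1 and Creld2, encode chaperones, folding enzymes and transcription factors of the endoplasmic reticulum (ER) stress response. They were chosen by symbol from the 24062 genes in the count tables, and all 10 were found there and passed the filter on low counts. Liver RNA from 12 female C57BL/6J mice was sequenced, 6 fed a control diet and 6 fed a matched diet with BIBB-515, an inhibitor of lanosterol synthase in the cholesterol pathway, dosed at 55 mg/kg of body weight for 10 days. All mice arrived at 6 weeks of age, were given 2 weeks to acclimate, and ate the control diet for 3 days before the diets diverged. The control mice carry numbers 1 to 6 and the BIBB-515 mice numbers 6 to 11. The question asked here is whether these genes differed between the diets, and how they varied from mouse to mouse.

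The ER folds and modifies the proteins a cell secretes, and the hepatocyte secretes albumin, clotting factors and lipoproteins in bulk. When unfolded proteins build up, 3 sensors in the ER membrane respond. IRE1 splices the mRNA of Xbp1 into the form that encodes an active transcription factor, PERK slows translation while the Atf4 mRNA is translated more and Ddit3 (CHOP) follows, and ATF6 is cut in the Golgi to release a factor that raises chaperone genes. The chaperones Hspa5 (BiP) and Hsp90b1 (GRP94) are the classic targets, and part of the regulation, such as Xbp1 splicing and Atf4 translation, does not show in the level of the mRNA.

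ATF6 and XBP1 act through short elements upstream of their targets, and stretches with an exact match to a known type of element are shown here. A gene without such a match in the searched window can still hold an element farther away or with other letters. The 250 bases upstream of each start were searched on both strands in RefSeq promoters of GRCm38.p6, and all 10 genes had an entry among 32851 promoters. The ER stress response element (ERSE), CCAAT and CCACG with 9 bases of any kind between them, was found upstream of Hspa5, Hsp90b1 and Creld2, and in 0.113% of all promoters. The sequences run 5′ to 3′ on the strand of the gene, with the fixed letters of the element in capitals, and where it lies on the opposite strand they read CGTGG and ATTGG.
Hspa5, chr2:34772015-34772053, plus strand: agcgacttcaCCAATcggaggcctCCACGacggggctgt
Hsp90b1, chr10:86705628-86705666, minus strand: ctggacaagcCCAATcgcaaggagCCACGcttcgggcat
Hsp90b1, chr10:86705523-86705561, minus strand: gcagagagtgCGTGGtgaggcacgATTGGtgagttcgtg
Creld2, chr15:88819510-88819548, plus strand: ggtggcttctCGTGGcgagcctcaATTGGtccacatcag

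The compact form ERSE-II, ATTGG and CCACG with 1 base of any kind between them, was found upstream of Herpud1 alone among the 10, and in 0.0304% of all promoters. Herpud1 also held TTGCATCA, a sequence bound by dimers of the ATF4 and CHOP families, which is in 0.791% of promoters. The core ACGTG that XBP1 recognises was found upstream of Dnajb9, Herpud1 and Hspa5, but also in 16.6% of all promoters, and in Herpud1 it overlaps the ERSE-II. The longer XBP1 element TGACGTGG, which is in 0.563% of promoters and contains the core, was found in none of the 10 windows. The windows of Herpud1 are shown as the only ones of the 10 with these 2 elements, and that of Dnajb9 because Dnajb9 is the gene called between the diets.
Herpud1 ERSE-II, chr8:94386367-94386397, plus strand: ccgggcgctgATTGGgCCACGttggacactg
Herpud1 TTGCATCA, chr8:94386307-94386334, plus strand: ccacggcgggTTGCATCAgcccgcaccc
Dnajb9 ACGTG, chr12:44210160-44210184, minus strand: acagttttccACGTGcgcgtagggc

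The authors deposited raw read counts per gene. Between 22764819 and 27914647 reads per control mouse and between 24223939 and 31058370 per BIBB-515 mouse were counted on genes, and levels are given as CPM, which are counts set against library size after TMM normalization. Fold changes are BIBB-515 over control from edgeR's quasi-likelihood test, with p-values adjusted over 12481 tested genes by the Benjamini-Hochberg method (FDR), and a gene is called at an FDR under 0.05. Of all tested genes 1705 were called, 13.7%, with 896 higher (7.18%) and 809 lower (6.48%), and for 882 genes (7.07%) the values of the diets did not overlap. The labels give separate mice but no cage for each mouse and no sequencing batch. The summed level of 10 hepatocyte markers was 158621 to 178995 CPM in control mice and 121385 to 136342 CPM in BIBB-515 mice. Most of it was Alb, at 114251 to 127370 CPM in control and 81730 to 95915 CPM in BIBB-515 mice. Of the 10 markers 4 were called, all lower (Alb, Ttr, Fgb and Ahsg), and none was at 0. The others had log2 fold changes from -0.27 for Apoa1 to 0.10 for Tdo2. The 20 most counted genes took 27.7% to 29.8% of reads in control and 23.6% to 25.2% in BIBB-515 mice. In whole liver, fewer cells of a type and less RNA of a marker per cell cannot be told apart. The part of these differences in the results for the 10 genes was not tested.

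Of the 10 genes, 1 was called, against 13.7% of all tested genes. Dnajb9 was higher with BIBB-515, and the other 9 did not pass the test. All 9 were fitted slightly lower, by 0.01 to 0.18 on the log2 scale, and 6606 of all 12481 tested genes were fitted lower. The sign of Hspa5, Ddit3, Atf4, Sdf2l1 and Herpud1 turned in some fits that left out a mouse. The median log2 fold change of the 10 was -0.05, against -0.01 over all tested genes. The median size of the change without its sign was 0.08, against 0.14 over all tested genes, and 9 of the 10 were under 0.2, as were 65.6% of all tested genes. In the exact permutation test of single genes, the 8 genes other than Dnajb9 and Hsp90b1 had an unadjusted p of 0.190 or more. The standard errors were alike, with a median of 0.10 for the 10 genes and 0.10 for all.

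**Figure D1:**
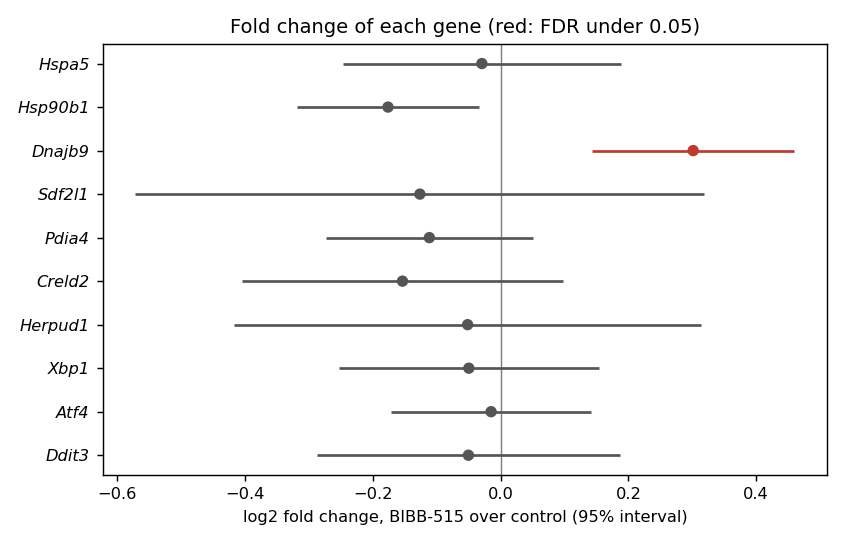
Log2 fold change of each gene, BIBB-515 over control, on the horizontal axis, with the 95% interval as a line, from 6 mice per diet. Dnajb9 in red lies above 0 with an interval from 0.14 to 0.46, and Hsp90b1 is the only other gene whose interval does not reach 0, from -0.32 to -0.03.

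Dnajb9 (ERdj4) is an ER co-chaperone of the DNAJ family that works with BiP and helps to pass misfolded proteins to degradation. The gene lies on the minus strand at chr12:44205897-44210068 (mm10). Its level in control mice was lowest at 28.9 CPM, with a median of 34.5 and a highest value of 37.1 CPM, and in BIBB-515 mice it ran from 37.4 through a median of 42.1 to 46.7 CPM. All 6 BIBB-515 mice were above all 6 control mice, though the gap between the closest mice was small. The mean was 34.1 ± 2.92 CPM (SD, n = 6) in control and 42.0 ± 3.73 CPM (SD, n = 6) in BIBB-515 mice. The log2 fold change of Dnajb9 was 0.30 ± 0.07 (SE), a fold of 1.23 with a 95% interval from 1.10 to 1.38 and an FDR of 0.0156. A two-sided exact permutation test of its log2 CPM gave an unadjusted p = 0.00216, the smallest that 6 against 6 allow, and no-overlap genes make up 7.07% of all tested. Ordered by p-value, Dnajb9 stood at place 856 of the tested genes. With any of the 12 mice left out, Dnajb9 stayed called at a log2 fold change between 0.27 and 0.33. It was also called with DESeq2's size factors, limma-voom, no filter on low counts and a filter of 1 CPM in 6 libraries, which called 13.6%, 13.4%, 8.15% and 14.2% of the genes they tested.

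The higher level of Dnajb9 was spread over its transcript. In the authors' table of counts per exon, all 3 exons were higher with BIBB-515, and by 0.29 on the log2 scale for the long 3′ exon of 1509 bases, where the diets did not overlap. The middle exon of 227 bases was higher by 0.38 and the 5′ exon of 129 bases by 0.61, and for both the diets overlapped. The 5′ exon rested on as few as 11 reads in a library. A ratio higher at the 5′ end was not particular to Dnajb9. In Hsp90b1 the first and last exons were at 0.16 and -0.18, and in Sdf2l1 at 0.20 and -0.18. Ddit3 went the other way, at -0.37 and -0.03, its first exon with as few as 5 reads. Relative to each of the other 9 genes, taken as the log2 ratio of CPM in the same mouse, Dnajb9 was higher by 0.32 to 0.48 with BIBB-515. The ratios did not overlap between the diets for Hsp90b1 and Atf4, and overlapped for the other 7. These exon values and ratios were looked at after Dnajb9 was seen to differ, so they are given as a description without a test.

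**Figure D2:**
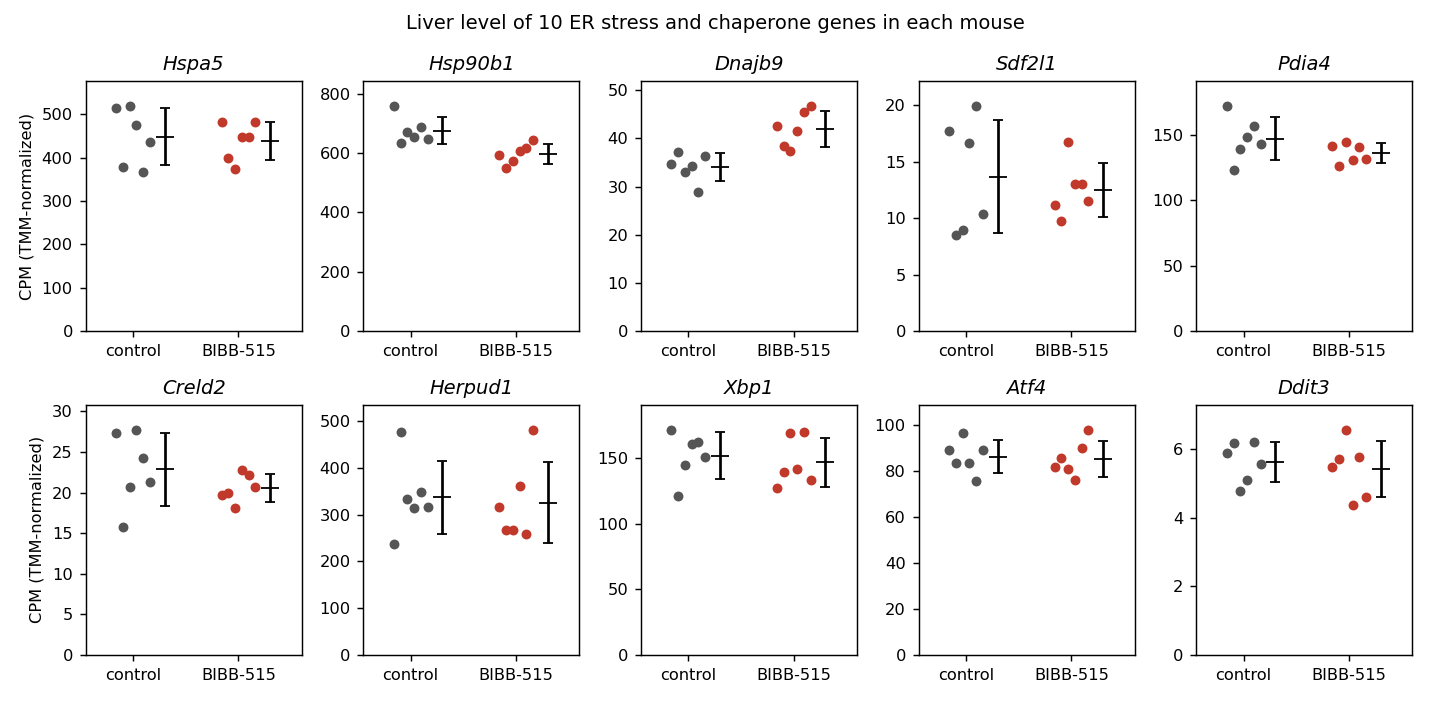
Level of each of the 10 genes in CPM (vertical axis, starting at 0) in the 6 control mice (grey) and the 6 BIBB-515 mice (red), with the mean and SD in black beside the points. The diets separate for Dnajb9, from 28.9 to 37.1 against 37.4 to 46.7 CPM, and nearly so for Hsp90b1, while for the other 8 genes the mice of both diets lie over each other.

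Hspa5 and Hsp90b1 are the main soluble chaperones of the ER, of the HSP70 and HSP90 families. Hspa5 (chr2:34772090-34776529, plus strand) ran from 366 CPM through a median of 455 to 519 CPM in control mice, and from 375 through 448 to 483 CPM in BIBB-515 mice. All BIBB-515 mice lay inside the control range. Hspa5 had a log2 fold change of -0.03 ± 0.10 (SE), with an edgeR FDR of 0.882 and a 95% interval from -0.25 to 0.19, which in percent is from -15.7% to 13.9%. The interval leaves room for a change of that size in either direction.

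Hsp90b1 (chr10:86690841-86705444, minus strand) had the next lowest p of the 10 genes. It ran from 632 CPM through a median of 661 to 758 CPM in control mice, and from 549 through 600.0 to 643 CPM in BIBB-515 mice. Of the 6 BIBB-515 mice 5 were below all control mice, and the remaining mouse, number 11, overlapped the lowest control mouse. The log2 fold change of Hsp90b1 was -0.18 ± 0.07 (SE), with a 95% interval from -0.32 to -0.03, and the gene did not pass the adjusted test (edgeR FDR = 0.0929, unadjusted p = 0.0193, unadjusted p = 0.00433 in the exact permutation test). Of all tested genes 29.7% had an unadjusted p under 0.05, and of the 10 genes 2, Dnajb9 and Hsp90b1. DESeq2 called Hsp90b1 at an FDR of 0.0252, in a test that called 18% of all genes, and the other 6 alternatives and all 12 fits that left out a mouse did not, with FDRs from 0.0769 to 0.189. Of its 18 exons 16 had a lower mean with BIBB-515.

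Pdia4 (ERp72, a protein disulfide isomerase that forms and reshuffles disulfide bonds) lies at chr6:47796141-47813512 on the minus strand. Its level ran from 123 CPM through a median of 146 to 172 CPM in control mice and from 126 through 136 to 145 CPM in BIBB-515 mice. All 6 BIBB-515 mice were below the control median but inside the control range. Between the diets the log2 fold change of Pdia4 was -0.11 ± 0.08 (SE), with an edgeR FDR of 0.353 and a 95% interval from -0.27 to 0.05. The exons of Pdia4 hold the microRNA gene Mir704, whose reads were set aside in these counts, and in the authors' alternative tables that count them the total of Pdia4 was 1.04 times as high.

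Sdf2l1 and Creld2 are small ER proteins that are raised early in ER stress, Sdf2l1 as a partner of ER co-chaperones and Creld2 as a protein with disulfide isomerase-like motifs. Sdf2l1 (chr16:17130138-17132383, minus strand) ran from 8.50 CPM through a median of 13.5 to 19.9 CPM in control mice, and from 9.74 through 12.3 to 16.7 CPM in BIBB-515 mice. The control mice fell apart into 3 at 8.50 to 10.4 CPM and 3 at 16.6 to 19.9 CPM, and the BIBB-515 mice lay within their range. The log2 fold change of Sdf2l1 was -0.13 ± 0.21 (SE), with an edgeR FDR of 0.730 and the widest interval of the 10 genes, from -0.57 to 0.32.

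Creld2 (chr15:88819646-88826681, plus strand) ran from 15.8 CPM through a median of 22.8 to 27.7 CPM in control mice, and from 18.1 through 20.3 to 22.7 CPM in BIBB-515 mice. All 6 BIBB-515 mice were below the control median and inside the control range. Creld2 had a log2 fold change of -0.15 ± 0.12 (SE), with an edgeR FDR of 0.416 and a 95% interval from -0.40 to 0.10. Its coefficient of variation was 19.9% in control and 8.28% in BIBB-515 mice, and for Sdf2l1 it was 36.4% and 19.1%. A difference in spread between the diets was not tested.

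Herpud1 (HERP, an ER membrane protein that assembles the machinery for degrading misfolded proteins) lies at chr8:94386500-94395358 on the plus strand. It ran from 237 CPM through a median of 325 to 477 CPM in control mice, and from 258 through 293 to 482 CPM in BIBB-515 mice. In each diet 1 mouse stood above the rest, control mouse 2 at 477 CPM against 348 CPM for the next, and BIBB-515 mouse 11 at 482 CPM against 362 CPM for the next. For Herpud1 the log2 fold change was -0.05 ± 0.17 (SE), with an edgeR FDR of 0.875 and a 95% interval from -0.42 to 0.31. The coefficient of variation was 23.2% in control and 26.4% in BIBB-515 mice.

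Among the transcription factors, Xbp1 (chr11:5520641-5525993, plus strand) ran from 122 CPM through a median of 156 to 172 CPM in control mice, and from 127 through 141 to 170 CPM in BIBB-515 mice. All BIBB-515 mice lay inside the control range. The log2 fold change of Xbp1 was -0.05 ± 0.10 (SE), with an edgeR FDR of 0.772 and a 95% interval from -0.25 to 0.15. These counts take the spliced and unspliced forms of Xbp1 together, so they bear on the amount of mRNA and not on its splicing by IRE1.

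Atf4 (chr15:80255184-80257545, plus strand) ran from 75.5 CPM through a median of 86.3 to 96.5 CPM in control mice and from 75.9 through 83.6 to 97.9 CPM in BIBB-515 mice, almost the same range. Atf4 had a log2 fold change of -0.01 ± 0.07 (SE), with an edgeR FDR of 0.918, and its 95% interval from -0.17 to 0.14 spans -11.2% to 10.3%. ATF4 is set mainly by translation, which these counts do not measure.

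Ddit3, which encodes CHOP, the factor tied to cell death in lasting ER stress, lies at chr10:127290793-127296288 on the plus strand. It was the lowest of the 10, with 108 to 184 reads per library. Its level ran from 4.76 CPM through a median of 5.72 to 6.21 CPM in control mice and from 4.37 through 5.59 to 6.56 CPM in BIBB-515 mice. The ranges overlapped, with 1 BIBB-515 mouse above and 2 below all control mice. The log2 fold change of Ddit3 was -0.05 ± 0.11 (SE), with an edgeR FDR of 0.803 and a 95% interval from -0.29 to 0.19. Exons of Ddit3 overlap those of Mars on the opposite strand, and reads in the overlap were set aside. In the tables that count them Ddit3 had 1.53 times as many reads, with 7.17 to 8.78 CPM in control and 7.46 to 8.65 CPM in BIBB-515 mice, and there part of the reads can come from Mars.

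Divided by exon length, the levels fell into 3 tiers in control mice. Hsp90b1 at 244 ± 16.5 CPM per kb (SD, n = 6), Herpud1 at 181 ± 41.8 and Hspa5 at 171 ± 25.3 were highest. Their ranges overlapped for Herpud1 and its neighbours on either side, and not for Hsp90b1 and Hspa5, whose control mice ran from 229 to 275 and from 140 to 198 CPM per kb. In the middle were Xbp1 at 67.7 ± 7.86, Pdia4 at 59.2 ± 6.69 and Atf4 at 49.8 ± 4.12 CPM per kb, each overlapping the next. The lowest were Dnajb9 at 18.3 ± 1.57, Creld2 at 16.8 ± 3.33, Sdf2l1 at 12.4 ± 4.50 and Ddit3 at 6.45 ± 0.675 CPM per kb, of which each overlapped the next but Ddit3, whose highest control mouse at 7.13 was below the lowest for Sdf2l1 at 7.67. The gap between Ddit3 and Sdf2l1 depends on how reads are counted. Reads of Ddit3 shared with Mars were set aside here while its full exon length was kept. With them counted Ddit3 had 1.53 times as many reads. In BIBB-515 mice the order of the 10 means was the same, and Dnajb9, at 20.1 to 25.0 CPM per kb, no longer overlapped Creld2, at 13.2 to 16.7.

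**Figure D3:**
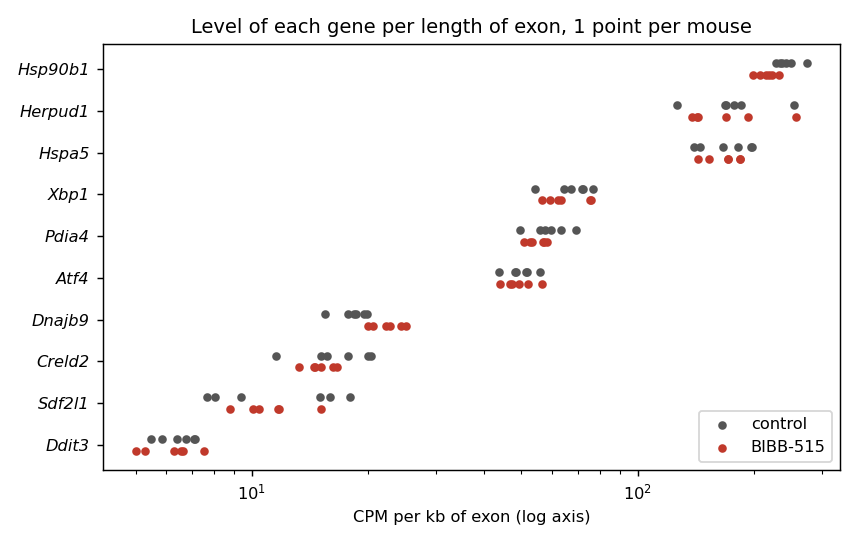
CPM per kb of exon on a log axis for each gene, with 1 point per mouse, control mice in grey and BIBB-515 mice in red, ordered by the control mean. The control means span from Ddit3 at 6.45 to Hsp90b1 at 244 CPM per kb, and the points of Dnajb9 lie further right in BIBB-515 mice.

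From mouse to mouse the 10 genes did not vary as a single block. Pearson's r of log2 CPM was computed for all 45 pairs within each diet of 6 mice. Of these 90 relations 47 were positive and 43 negative, 12 had an unadjusted exact permutation p under 0.05, and none stayed under 0.05 after adjustment over all 90, where the lowest value was 0.125. With 6 mice the smallest exact permutation p for r is 0.00139, which becomes 0.125 for a single pair. The adjusted test could therefore not have passed any pair standing alone.

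In control mice the pairs with the highest r tied Xbp1 to Pdia4 and Creld2. For Xbp1 and Pdia4 r was 0.96 and rho 1, with exact permutation p = 0.00139 for r and p = 0.00278 for rho (adjusted p = 0.125 and 0.25), and r was 0.92 without the 2 mice farthest from the median of Xbp1. For Xbp1 and Creld2 r was 0.96 and rho 0.83 (exact permutation p = 0.00694 and 0.0583, adjusted 0.264 and 0.4375), and r was 0.86 without the 2 farthest mice. In BIBB-515 mice r was 0.49 for Xbp1 and Pdia4, -0.08 for Xbp1 and Creld2, and -0.39 for Pdia4 and Creld2. For Sdf2l1 the control mice fell into separate groups of 3, so its r in control mice is not given. Its control pairs are still in the counts of relations above, also in that of unadjusted exact permutation p under 0.05. Herpud1 ran the other way, with r = -0.89 and rho = -0.66 to Xbp1 (exact permutation p = 0.0264 and 0.175, adjusted 0.264 and 0.716), but that relation rested on 2 mice, without which r was 0.11.

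In BIBB-515 mice the pairs with the highest r joined Dnajb9 to Hsp90b1 and Hspa5, neither past adjustment. For Hsp90b1 and Dnajb9 r was 0.91 and rho 0.89 (exact permutation p = 0.0153 and 0.0333, adjusted 0.264 and 0.4375), and r was 0.93 without the 2 farthest mice. For Hspa5 and Dnajb9 r was 0.87 and rho 0.94 (exact permutation p = 0.0236 and 0.0167, adjusted 0.264 and 0.375), but r was 0.27 without the 2 farthest mice. The mice left were all near 448 or 483 CPM for Hspa5. With so few distinct levels, that r cannot tell whether the relation rested on the 2 removed. In control mice r of Dnajb9 was -0.33 with Hsp90b1 and 0.23 with Hspa5. Whether these relations differ between the diets was not tested.

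**Figure D4:**
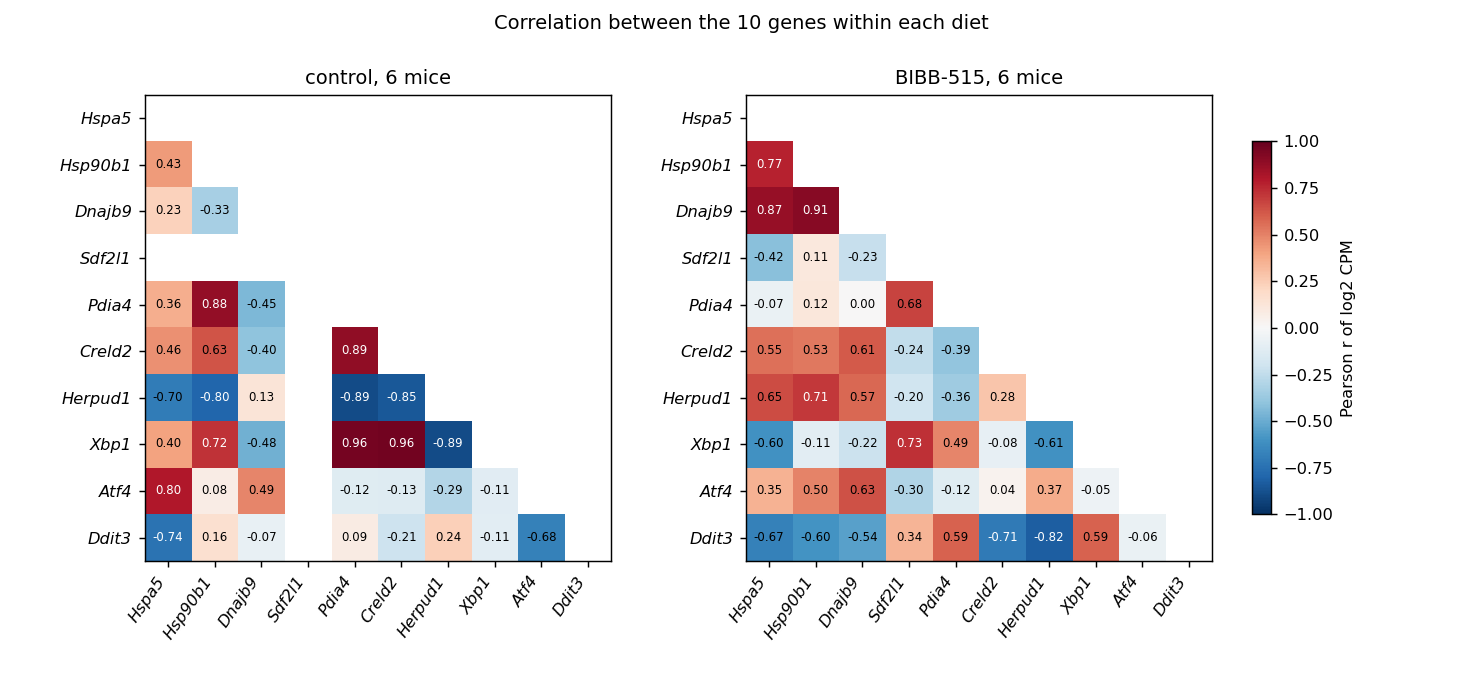
Pearson's r of log2 CPM between each pair of the 10 genes in 6 control mice (left) and 6 BIBB-515 mice (right), as colour from -1 to 1 and as a number in each square, left blank for Sdf2l1 in control mice. The positive group of Xbp1, Pdia4 and Creld2 in control mice, with r of 0.89 to 0.96, and the group of Hspa5, Hsp90b1 and Dnajb9 in BIBB-515 mice stand out. No value passes adjustment, which a pair standing alone could not do with 6 mice.

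Across all 12 mice, after the mean of each diet was taken out, the genes that ran most like Hspa5 among 8496 genes were Vimp (the older symbol of Selenos, an ER membrane selenoprotein of the degradation machinery) with r = 0.94, Scfd1, a factor of vesicle traffic between ER and Golgi, with r = 0.94, Ddx1, an RNA helicase, with r = 0.91, Manf, a secreted ER stress protein, with r = 0.90, and Ssb, an RNA-binding protein, with r = 0.90. Manf ran from 38.1 CPM through a median of 50.3 to 67.7 CPM in control mice and from 41.4 through 52.6 to 58.6 CPM in BIBB-515 mice, with a log2 fold change of -0.04 ± 0.15 (SE) and an edgeR FDR of 0.880. None of the 5 was called between the diets. Exons of Ssb overlap those of Mettl5 on the opposite strand. These correlations are a description over mice that share their diets and libraries.

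Other genes of the same pathways were read from 7 lists. The lists were chosen with earlier results of these data known. Their shares of called genes and medians are therefore a description, and were not tested against those of all genes. Over all tested genes the share called was 13.7% and the median log2 fold change -0.01, to be read beside each list. Of 18 tested sensors and switches of the response, which include the sensors themselves, 1 was called (5.56%), Bak1, a pore-forming protein of apoptosis that also binds IRE1. Bak1 ran from 18.0 CPM through a median of 19.5 to 22.4 CPM in control mice and from 23.9 through 24.6 to 26.8 CPM in BIBB-515 mice, with no overlap and a log2 fold change of 0.34 ± 0.06 (SE, edgeR FDR = 0.00351). The median log2 fold change of the list was 0.03. The sensor genes were not called in the main fit. Ern1 (IRE1) was at -0.46 ± 0.17 (SE, edgeR FDR = 0.0808) and Atf6 at -0.23 ± 0.09 (SE, edgeR FDR = 0.0909). Eif2ak3 (PERK) was at 0.14 ± 0.12 (SE, edgeR FDR = 0.464).

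Of 36 tested ER folding and redox factors 4 were higher and 2 lower (16.7%), with a median of -0.06. P4hb, the most abundant protein disulfide isomerase, was higher, from 1254 to 1485 CPM in control mice against 1519 to 1666 CPM in BIBB-515 mice, with no overlap and a log2 fold change of 0.28 ± 0.07 (SE, edgeR FDR = 0.0140). Cnpy3, a helper of GRP94 in folding Toll-like receptors, was higher by 0.30 ± 0.06 (SE) on the log2 scale (edgeR FDR = 0.00828), and its values just overlapped. Txndc11, a thioredoxin-like ER protein, was higher by 0.39 ± 0.09 (SE, edgeR FDR = 0.00932) with no overlap, and its exons overlap those of Snn on the opposite strand. The 2 lower genes were Dnajc3 at -0.29 and Fkbp14 at -0.57, named here after their values were seen. Dnajc3 (P58IPK) is, like Dnajb9, an ER co-chaperone of BiP, and its edgeR FDR was 0.0158.

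Of 26 tested factors of ER-associated degradation 3 were called (11.5%), 2 of them higher, with a median of 0.00. In the tables that count reads on overlapping genes 2 were called. Vcp, the ATPase that pulls misfolded proteins out of the ER membrane, was higher by 0.28 ± 0.08 (SE, edgeR FDR = 0.0320), and Ubxn4, its anchor in that membrane, by 0.28 ± 0.08 (SE, edgeR FDR = 0.0267). Values of Vcp ran from 190 to 276 CPM in control and from 263 to 285 CPM in BIBB-515 mice, so the diets overlapped. Both calls lie near the threshold, since Vcp lost its call in 6 and Ubxn4 in 3 of the 12 fits that left out a mouse. In those fits the log2 fold change was 0.25 to 0.28 for Vcp and 0.27 to 0.28 for Ubxn4, with edgeR FDRs from 0.0522 to 0.0665. Without BIBB-515 mouse 6, 8 or 11, 1 factor of the list was called. The other called gene, the ubiquitin-conjugating enzyme Ube2j2, was near 1 CPM in these counts, with a log2 fold change of -0.96 ± 0.20 (SE, edgeR FDR = 0.00664), and its exons overlap those of Gm5801 on the same strand, so shared reads were set aside. In the tables that count those reads its log2 fold change was 0.01 with an FDR of 0.947, so no direction is given for it.

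Of 40 tested genes of ER translocation, glycosylation and export 1 was higher and 2 lower (7.5%), with a median of 0.03. The oligosaccharyltransferase subunits Stt3b and Rpn1 went opposite ways, Stt3b at 0.24 ± 0.07 (SE, edgeR FDR = 0.0388) and Rpn1 at -0.25 ± 0.07 (SE, edgeR FDR = 0.0269). The translocon subunit Sec62 was lower, at -0.20 ± 0.06 (SE, edgeR FDR = 0.0406) with no overlap. These calls lie near the threshold. Of the 12 fits that left out a mouse, Sec62 lost its call in 9, Stt3b in 8 and Rpn1 in 4, with edgeR FDRs from 0.0534 to 0.0981. Of the 40, 1 was called by edgeR without control mouse 5 or BIBB-515 mouse 10 and 0 without BIBB-515 mouse 6, 7 or 9.

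Of 35 tested targets of ATF4 and CHOP 12 were called (34.3%, against 13.7% of all tested genes), 8 higher and 4 lower, with a median of 0.03. Trib3, a pseudokinase induced by ATF4 and CHOP, ran from 4.25 CPM through a median of 4.95 to 7.92 CPM in control mice and from 12.7 through 14.5 to 16.6 CPM in BIBB-515 mice. All BIBB-515 mice were above all control mice, with a log2 fold change of 1.40 ± 0.13 (SE, edgeR FDR = 1.25e-05). Gdf15, a secreted stress hormone, ran from 1.57 CPM through a median of 2.15 to 3.98 CPM in control mice and from 6.20 through 10.6 to 21.3 CPM in BIBB-515 mice, with a log2 fold change of 2.41 ± 0.32 (SE, edgeR FDR = 0.000243).

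Other genes of that list moved down. Cebpg, which encodes a dimer partner of ATF4, ran from 60.0 CPM through a median of 71.4 to 78.8 CPM in control mice and from 40.4 through 45.8 to 50.6 CPM in BIBB-515 mice, with a log2 fold change of -0.63 ± 0.07 (SE, edgeR FDR = 7.49e-05). Fgf21, a secreted hormone of fasting and stress, was lower, at -1.80 ± 0.26 on the log2 scale (SE, edgeR FDR = 0.000508), named here after its value was seen. Atf4 and Ddit3 themselves stood at -0.01 and -0.05. The number of called genes in the list dropped to 7 when BIBB-515 mouse 6 was left out.

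For chaperones outside the ER, 2 of 29 tested cytosolic heat shock genes were higher and 3 lower (17.2%), with a median of -0.15. Stip1 and Hsph1, a co-chaperone of HSP70 and HSP90 and a nucleotide exchange factor of HSP70, were lower, at -0.45 ± 0.09 (SE, edgeR FDR = 0.00534) and -0.57 ± 0.14 (SE, edgeR FDR = 0.0146), while Bag3, another HSP70 co-chaperone, was higher by 0.31 ± 0.08 (SE, edgeR FDR = 0.0166). With control mouse 1 or 4 or BIBB-515 mouse 8, 9 or 11 left out, 3 of the 29 were called.

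Of 15 tested mitochondrial chaperones and proteases 7 were higher and 1 lower (53.3%), with a median of 0.21, against 13.7% and -0.01 over all tested genes. Hspd1 (HSP60), the chaperonin of the mitochondrial matrix, ran from 283 CPM through a median of 304 to 341 CPM in control mice and from 358 through 370 to 436 CPM in BIBB-515 mice, with no overlap and a log2 fold change of 0.32 ± 0.07 (SE, edgeR FDR = 0.00704). Hscb, a co-chaperone of iron-sulfur cluster assembly, was higher by 0.42 ± 0.09 (SE, edgeR FDR = 0.00609) with no overlap. Grpel2, a nucleotide exchange factor of mitochondrial HSP70, was the lower gene, at -0.43 ± 0.08 (SE, edgeR FDR = 0.00305), also with no overlap.

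**Figure D5:**
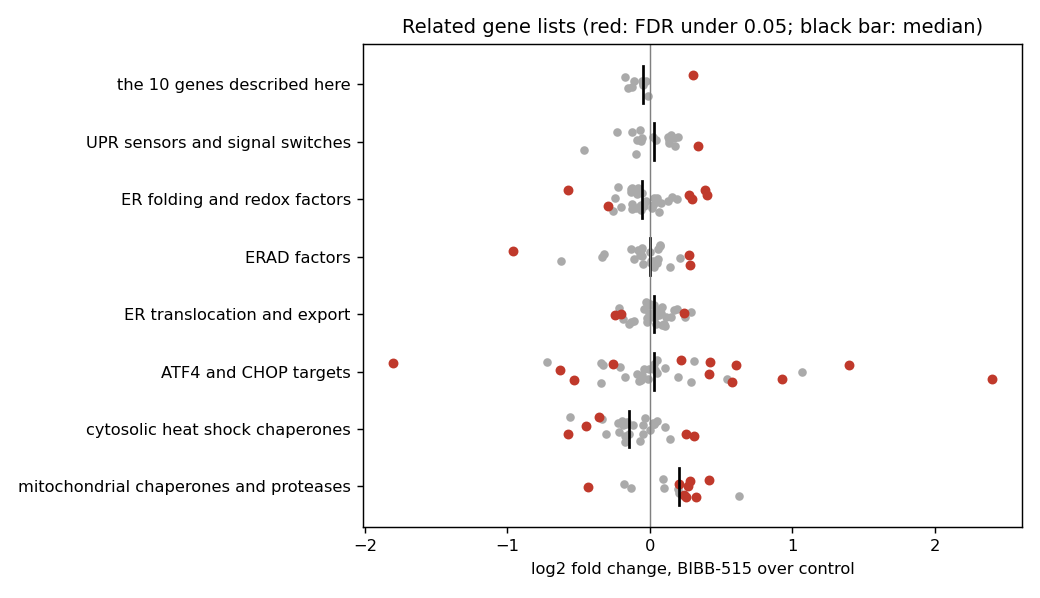
Log2 fold change, BIBB-515 over control, of every tested gene of the 10 and of the 7 related lists, with genes at an FDR under 0.05 in red and the median of each list as a black bar. The 10 genes sit close to 0 apart from Dnajb9 at 0.30, while the ATF4 and CHOP targets spread from -1.80 to 2.41.

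Markers of other cells that make much secreted protein were read beside these results. Of 19 markers of the exocrine pancreas 9 were at 0 in every library, among them Prss2 and Pnlip, and the summed level was 12.0 to 23.2 CPM in control and 10.1 to 11.0 CPM in BIBB-515 mice, with no overlap (two-sided exact permutation test, p = 0.00216, not adjusted). Most of it was Cela1, at 10.1 to 21.7 CPM in control and 9.13 to 10.1 CPM in BIBB-515 mice, the 1 marker of the list that was called, lower (edgeR FDR = 0.0365). Of the 10 plasma cell markers 4 were tested and none called, and the sum of 358 to 577 CPM in control and 523 to 650 CPM in BIBB-515 mice came mostly from Sdc1, at 207 to 400 and 383 to 476 CPM, and from Xbp1 itself, both of which hepatocytes express. The more specific plasma cell genes Igj and Mzb1 were between 0.280 and 1.20 CPM in all 12 mice. The summed level of 8 bile duct markers was 82.9 to 136 CPM in control and 112 to 175 CPM in BIBB-515 mice (exact permutation test, two-sided, with an unadjusted p = 0.0325), with none of the 7 tested called. Of 12 stellate and endothelial markers 1 was called, lower, and the sums overlapped at 349 to 470 and 348 to 423 CPM. No Kupffer cell or fat marker was called, and their sums overlapped as well, at 399 to 653 and 401 to 679 CPM for 9 Kupffer cell markers and at 25.9 to 36.2 and 29.9 to 34.6 CPM for 8 fat markers, of which Lep was at 0.

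The share of exon reads on the 5′ side of the transcript midpoint, a sign of RNA quality, had a median over 5180 genes of 32.8% to 41.1% in control and 35.2% to 41.4% in BIBB-515 libraries (two-sided exact permutation test, p = 0.639), lowest in control mouse 4 and BIBB-515 mouse 11. With this share as a covariate Dnajb9 had a log2 fold change of 0.30 and an edgeR FDR of 0.0172, and it was again the 1 gene of the 10 that was called. Within Sdf2l1 the 5′ share was 22.6% to 27.9% in control and 26.4% to 32.9% in BIBB-515 mice (exact permutation test, unadjusted p = 0.0433), and within Creld2 it was 30.3% to 35.9% and 33.0% to 40.3% (unadjusted p = 0.0390), the lowest p of the 6 genes for which it could be computed.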

How the data were processed

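The data analysed are liver RNA-seq libraries of 12 mice, 6 per diet, grouped by the diet in their labels. The authors deposited whole-number read counts per gene, per exon and per transcript. The file headers name featureCounts 1.6.3 and a UCSC annotation of mm10, counted without regard to strand and leaving out multi-mapping reads and reads shared between genes, and the submitters' processing notes list STAR 2.5.3a. The library preparation and the test for these libraries are not given in the sources used here. Transcript tables were not used, exon tables were used as a description, and tables of primary alignments, which give a shared read to every gene it overlaps, as an alternative.

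Genes with at least 1 CPM in 2 of 12 libraries were kept (12481). TMM normalization and the quasi-likelihood test of edgeR 4.0.16 were run in R 4.3.3 on a model of diet alone, after a check on simulated data. Intervals of fold changes are 95%. Single genes were also compared by a two-sided exact permutation test (scipy 1.17.1). Alternatives were DESeq2 1.42.0, limma-voom (limma 3.58.1), DESeq2's size factors or upper-quartile scaling in edgeR, no filter, at least 1 CPM in 6 libraries, the primary alignment tables, and each mouse left out. The 5′ share used genes with at least 4 exons, 1500 bases and 200 reads per library, with the 10 genes exempt from the exon and length minimum. Library pairs of the same diet differed by far more than sampling noise (chi-square per degree of freedom at least 12.1 over 30 pairs).

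The 10 genes, the related lists and the marker lists were chosen with earlier results of these data known. Genes named from a related list are the up to 3 with the lowest p among those called, and the genes most like Hspa5 are the 5 with the highest r among those whose log2 CPM averaged 3 or more. The exon values, the ratios of Dnajb9 and the 5′ share were added after the values were seen.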

Additional observations from a re-analysis of the deposited data

Results flagged for a closer look

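Gdf15 in the control group had 1 mouse that stood apart from the others. Control mouse 2 was at 3.98 CPM, against 2.33 CPM for the next highest and 1.57 CPM for the lowest, so that its gap to the nearest mouse was 0.682 of the whole range of the group. It was below all 6 BIBB-515 mice. Of 68 groups of 6 mice examined, for the 10 genes and the other genes named, this was the 1 that stood apart by this measure, against 3.4 that chance alone gives, and none of the 20 groups of the 10 genes did.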

How the results depend on the processing

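Dnajb9 stayed higher and called under all 7 other settings that kept the 12 mice, with FDRs from 0.00279 to 0.0187, and with each mouse left out, with FDRs from 0.0131 to 0.0422, so that the count of called genes among the 10 was 1 in each of those 12 fits. DESeq2 called 2 of the 10, adding Hsp90b1. With single mice left out, the fitted sign of Hspa5, Ddit3, Atf4, Sdf2l1 and Herpud1 turned in some fits, none of them called. DESeq2 also called 3 sensors and switches in place of 1 and 5 translocation and export genes in place of 3. With the 5′ share as a covariate, 2 sensors and switches were called. Leaving out mice moved the counts to between 1 and 2 for sensors and switches (2 without control mouse 2, 4 or 5), 5 and 7 for folding factors, 1 and 3 for degradation factors (1 without BIBB-515 mouse 6, 8 or 11), 0 and 4 for translocation and export, 7 and 14 for ATF4 and CHOP targets, 3 and 6 for cytosolic and 6 and 9 for mitochondrial chaperones, and 1199 and 1865 for all genes. The cause was not tested. With reads on overlapping genes counted, Ddit3 had 9.38 in place of 6.33 CPM per kb over all mice, and Ube2j2 turned from -0.96 to 0.00845 on the log2 scale, both through the added reads. With no low-count filter Sec62 lost its call (FDR = 0.0844), and single mice left out did the same for Sec62, Stt3b, Vcp, Rpn1 and Ubxn4. At 108 to 184 reads per library, Ddit3 had the fewest reads of the 10 genes, while Ube2j2 outside them had as few as 12. No paired analysis was possible because control and BIBB-515 mice share no number but 6, which marks different mice in each diet.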
